A study of Mus musculus with 8 samples.

Results

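The 10 genes described here make up a small working set for cytoplasmic polyadenylation: the CPE-binding proteins Cpeb1, Cpeb2, Cpeb3 and Cpeb4, the poly(A) polymerase Papola, the deadenylase Parn, the cytoplasmic poly(A)-binding proteins Pabpc1 and Pabpc1l, and Cpsf1 and Nudt21 of the machinery that cleaves and polyadenylates new transcripts. They were chosen by symbol, with earlier results of these data known, and all 10 were found among the 24860 genes listed. RNA had been measured in MII oocytes, eggs arrested at metaphase of the second meiotic division, of C57BL/6 females at postnatal day 42. There were 4 libraries of wild-type females (WT) and 4 of Esrp1-/- females (Esrp1-KO), each from 15 oocytes lysed together. The labels name no other treatment and no Cre driver, and do not say which part of Esrp1 was deleted, how many animals gave each tube, or how many founder lines there were. The comparison asks how the RNA of these genes differs in eggs of females labelled Esrp1-/-. Esrp1 encodes an RNA-binding regulator of splicing, and its protein was not measured.

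A growing oocyte stores much of its mRNA with short poly(A) tails and translates it later. CPEB proteins bind the cytoplasmic polyadenylation element (CPE), a U-rich motif in the 3′ UTR, and need a nearby polyadenylation hexamer bound by the CPSF complex. In the classical scheme, worked out largely in frog oocytes, CPEB1 holds a poly(A) polymerase together with the deadenylase PARN, which keeps the tail short. Meiotic signals phosphorylate CPEB1, PARN leaves, the tail grows, and poly(A)-binding proteins cover it and promote translation. Much of CPEB1 is then degraded during maturation, and CPEB4 has been described, again in frog oocytes, as the protein that takes over at the second division.

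The values are FPKM, reads scaled by the exon length of the gene and by the total reads of the library. The libraries held 24910433 to 32337966 reads, and 15201 to 20047 genes were above 0. Esrp1 fell from 17.5 ± 1.42 FPKM in WT to 3.30 ± 0.68 in Esrp1-KO (log2 fold change -2.12, adjusted p = 1.32e-05), and here as below ± is the SD over the 4 libraries of a group. A gene was tested where its mean over all libraries reached 1 FPKM, with limma on log2(FPKM + 1), Benjamini-Hochberg adjustment over 8021 genes and a threshold of 0.05. The log2 fold changes quoted are on that scale, which understates the change of low genes. Of the genes tested, 2961 passed, 1111 higher and 1850 lower in Esrp1-KO. The lower calls made up 62.5% of those that passed in the values as deposited, 53.6% with TMM scaling, 52.1% with median-ratio scaling, 51.1% with quantile normalization and 68.4% with a common total of nuclear genes. In libraries of pooled eggs, less RNA per egg and fewer eggs that carry it cannot be told apart. cDNA synthesis was primed on poly(A) tails, so the amount of an mRNA and the state of its tail cannot be told apart either.

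All 13 oocyte markers examined were detected, and their summed level was 7815 to 8625 FPKM in WT and 9404 to 10542 in Esrp1-KO. Markers of granulosa and cumulus cells summed to 10.1 to 13.2 FPKM in WT and 4.67 to 6.15 in Esrp1-KO. The highest of them were Cyp19a1, Kitl and Nr5a2, genes chosen here after their values were seen. The other 12 of the 15 such markers were under 1 FPKM in every library, with the defining Foxl2 and Fshr under 0.1. Blood and immune markers summed to 1.2 to 2.25 FPKM in WT and to 1.95 to 11.2 in Esrp1-KO, the highest in Esrp1-KO replicate 3. Stromal and vessel markers summed to 4.60 to 6.37 FPKM and 6.61 to 9.08. Genes of cleavage-stage embryos summed to 46.2 to 63.5 FPKM in WT and 34.6 to 46 in Esrp1-KO. Of the 18 found, 14 were under 1 FPKM in every library. The highest, picked after their values were seen, were Tcstv1, Tcstv3 and Gata3, and they did not move together. Gata3 had 11.8 to 15.8 FPKM in WT and 3.03 to 3.24 in Esrp1-KO. Tcstv3 had 5.55 to 10.6 and 11.3 to 20.9, and Tcstv1 22.4 to 36.4 and 18.1 to 22.7. The part of these differences in the results below was not tested.

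Of the 10 genes, 7 reached the minimum level. Cpeb1, Pabpc1l and Nudt21 rose, Cpeb4 fell, and Cpeb3, Papola and Parn did not pass. The other 3, Cpeb2, Pabpc1 and Cpsf1, lay under 1 FPKM in every library. Among all genes tested 36.9% passed in either direction, 13.9% higher and 23.1% lower. The groups did not overlap for Cpeb1, Cpeb4 and Pabpc1l, and for 36.8% of all genes tested. The median log2 fold change of the 7 genes was 0.29, against -0.06 over all genes tested. The genes were chosen with earlier results of these data known, and Nudt21 reached the minimum only through its level in Esrp1-KO. These counts therefore describe the 7 genes and support nothing about the set.

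**Figure D1:**
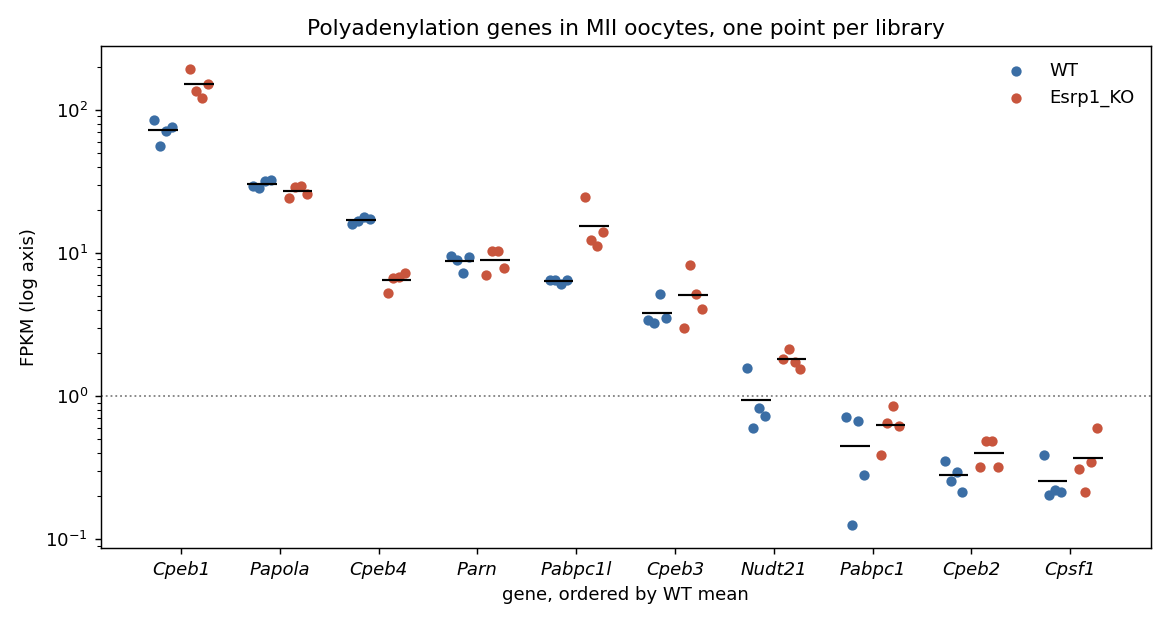
FPKM of the 10 genes in each library (vertical log axis; points are libraries by group, horizontal bars are group means of 4 libraries). The groups stand apart for Cpeb1, Cpeb4 and Pabpc1l and overlap for the other 7 genes.

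Cpeb1 (ENSMUSG00000025586, GRCm38 chr7:81347026-81455465, minus strand) had the highest FPKM of the 10 genes in both groups. Its level was 84.4, 55.7, 71.1 and 75.9 FPKM in WT replicates 1 to 4 and 194, 136, 120 and 152 FPKM in the Esrp1-KO replicates. Every Esrp1-KO library was above every WT library. The mean rose 2.1-fold, from 71.8 ± 12.1 to 151 ± 31.5 FPKM (log2 fold change 1.05, SE 0.18, 95% interval 0.66 to 1.45, adjusted p = 0.00146). These levels rested on 5838 to 26252 reads a library. By mean FPKM, Cpeb1 moved from rank 579 of the 24860 genes in WT to rank 273.

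Cpeb4 (ENSMUSG00000020300, chr11:31872211-31935634, plus strand), the paralogue associated with the later part of meiosis, went the other way. WT replicates 1 to 4 had 16.0, 16.7, 17.8 and 17.4 FPKM, and the Esrp1-KO replicates had 5.24, 6.73, 6.79 and 7.27 FPKM. The groups were tight and far apart. The mean fell from 17.0 ± 0.80 to 6.51 ± 0.88 FPKM, 0.383 of WT (log2 fold change -1.27, SE 0.12, 95% interval -1.54 to -0.99, adjusted p = 7.52e-05). Its rank by mean FPKM went from 2060 to 3616.

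The remaining CPEB genes were low. Cpeb3 (ENSMUSG00000039652, chr19:37021291-37208601, minus strand), best known as a repressor of translation in neurons, had 3.42, 3.23, 5.18 and 3.49 FPKM in WT and 3.0, 8.19, 5.17 and 4.08 in Esrp1-KO. The groups overlapped, and the log2 fold change of 0.29 did not pass (95% interval -0.26 to 0.83, adjusted p = 0.387). Cpeb2 (ENSMUSG00000039782, chr5:43233170-43289724, plus strand) lay between 0.212 and 0.354 FPKM in WT and between 0.317 and 0.488 in Esrp1-KO, on 48 to 108 reads a library. With the minimum level removed its log2 fold change was 0.13 (adjusted p = 0.414), in a fit in which 12.2% of 24860 genes passed.

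Within each library the makeup of the CPEB transcripts was compared as shares of their summed FPKM, which do not depend on the library total. Cpeb1 made up 77.0 ± 3.37% of the sum in WT (73.3 to 81.1%) and 92.3 ± 2.66% in Esrp1-KO (89.8 to 95.8%). Cpeb4 made up 18.5 ± 2.78% and 4.15 ± 1.08%. The ranges of both shares were apart. Cpeb3 held 4.16 ± 0.98% and 3.32 ± 1.71%, with overlapping ranges, and Cpeb2 held under 0.4% in every library. The ratio of Cpeb1 to Cpeb4 was 4.24 ± 0.82 in WT and 24.0 ± 8.78 in Esrp1-KO, where replicate 1 had 37.0 and the others 17.7 to 20.9. The summed level of the 4 genes was 92.8 ± 12.0 FPKM in WT and 163 ± 29.3 in Esrp1-KO. These shares and ratios are descriptions, with no test beyond those of the single genes.

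**Figure D2:**
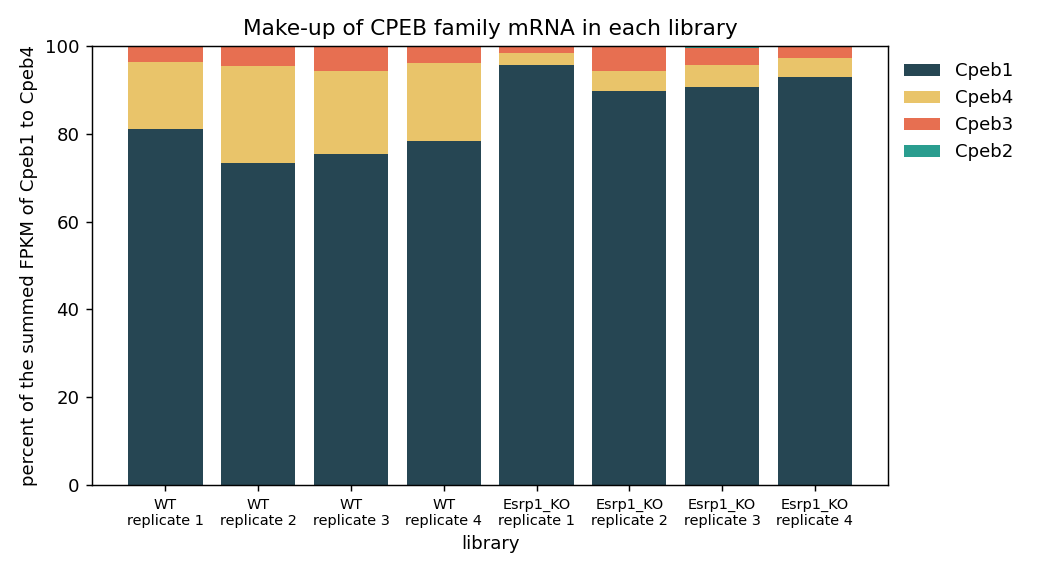
Share of Cpeb1, Cpeb2, Cpeb3 and Cpeb4 in their summed FPKM, in percent, for each of the 8 libraries (stacked bars from 0). The Cpeb4 segment is 15.3 to 22.1% in WT and 2.59 to 5.11% in Esrp1-KO, and Cpeb2, under 0.4%, is too thin to see.

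Neither Papola nor Parn passed the test. Papola (ENSMUSG00000021111, chr12:105784694-105838944, plus strand), the main nuclear poly(A) polymerase and also found in oocyte cytoplasm, had 29.2, 28.4, 32 and 32.1 FPKM in WT and 24.3, 29.0, 29.5 and 25.9 in Esrp1-KO. The log2 fold change was -0.16 (95% interval -0.42 to 0.10, adjusted p = 0.306). Parn (ENSMUSG00000022685, chr16:13537960-13668170, minus strand), the poly(A)-specific ribonuclease, had 9.58, 8.91, 7.30 and 9.37 FPKM in WT and 7.03, 10.3, 10.3 and 7.90 in Esrp1-KO. Its log2 fold change was 0.00 (95% interval -0.34 to 0.34, adjusted p = 0.992). For both genes the groups overlapped, and the intervals leave room for modest changes in either direction. The ratio of Papola to Parn was 3.51 ± 0.60 in WT and 3.11 ± 0.31 in Esrp1-KO, while that of Cpeb1 to Papola was 2.36 ± 0.39 and 5.65 ± 1.71.

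Pabpc1l (ENSMUSG00000054582, chr2:164025450-164050538, plus strand), also called embryonic poly(A)-binding protein, is the form that oocytes and early embryos use and is needed for oocyte maturation in mice. WT replicates 1 to 4 had 6.46, 6.46, 6.02 and 6.52 FPKM, and the Esrp1-KO replicates had 24.4, 12.2, 11.1 and 14.1 FPKM. The WT libraries were nearly equal and the Esrp1-KO libraries were spread, with all of them above WT. The mean rose 2.43-fold, from 6.37 ± 0.23 to 15.5 ± 6.09 FPKM (log2 fold change 1.10, SE 0.21, 95% interval 0.62 to 1.57, adjusted p = 0.00315). Without Esrp1-KO replicate 1, the highest library, the log2 fold change was 0.87 (adjusted p = 0.000895).

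Pabpc1 (ENSMUSG00000022283, chr15:36595661-36609668, minus strand), the poly(A)-binding protein of somatic cells, was scarce in both groups. It had 0.710, 0.125, 0.665 and 0.282 FPKM in WT and 0.386, 0.647, 0.853 and 0.613 in Esrp1-KO, on 18 to 141 reads a library. The groups overlapped, and with no minimum level the log2 fold change was 0.18 (adjusted p = 0.548). Of its 50-base stretches 9.94% also occur in transcripts of other genes, 866 of them, so its level is uncertain. Pabpc1l exceeded Pabpc1 in every library, by 9.06 to 51.8-fold in WT and 13 to 63.3-fold in Esrp1-KO.

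Nudt21 (ENSMUSG00000031754, chr8:94015496-94037031, minus strand) encodes the small subunit of cleavage factor Im, which binds upstream of cleavage sites and affects which site is used. It had 1.58, 0.598, 0.830 and 0.724 FPKM in WT and 1.82, 2.12, 1.72 and 1.55 in Esrp1-KO. WT replicate 1 stood above the lowest Esrp1-KO library, so the groups overlapped. The same library had the most genes above 0 (20047) and the highest WT level of Cpeb2, Pabpc1 and Cpsf1. The mean rose 1.93-fold, from 0.933 ± 0.44 to 1.80 ± 0.24 FPKM (log2 fold change 0.56, SE 0.17, 95% interval 0.19 to 0.93, adjusted p = 0.0254). The call was lost without WT replicate 2 (adjusted p = 0.0586), WT replicate 3 (0.0592), WT replicate 4 (0.0679), Esrp1-KO replicate 2 (0.0615) or Esrp1-KO replicate 3 (0.0511), and with no minimum level (0.0677). It rested on 80 to 315 reads a library, and 11.9% of its 50-base stretches are shared with 4 other genes.

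Cpsf1 (ENSMUSG00000034022, chr15:76595803-76607591, minus strand), the large subunit of the complex that includes the readers of the hexamer, had 0.386, 0.204, 0.220 and 0.214 FPKM in WT and 0.308, 0.213, 0.348 and 0.595 in Esrp1-KO. These levels rested on 23 to 76 reads, the groups overlapped, and with no minimum level the log2 fold change was 0.12 (adjusted p = 0.548). No difference in Cpsf1, Cpeb2 or Pabpc1 was called.

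FPKM are per length, so the genes can also be ordered by FPKM. The length is that of all annotated exons of a gene together, which can exceed that of an mRNA. For Papola it was 6595 bases, against 2436 for its annotated transcript Papola-212, and for Pabpc1l 2724 against 2354. The order between genes therefore depends on the annotation and is not one of molecules. In WT the order was Cpeb1, Papola, Cpeb4, Parn, Pabpc1l, Cpeb3, Nudt21, Pabpc1, Cpeb2 and Cpsf1. Neighbours down to Nudt21 did not overlap in any library, and Nudt21, Pabpc1, Cpeb2 and Cpsf1 each overlapped the next. In Esrp1-KO, Pabpc1l stood next to Papola, which its highest library overlapped, and Cpeb4 stood between Parn and Cpeb3 and overlapped both. Cpeb4 was therefore above Pabpc1l in every WT library and below it in every Esrp1-KO library.

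The libraries also differed in a way that the genotype does not account for. Deviations from the group means, across genes, correlated between WT and Esrp1-KO libraries numbered 1 or 4 (0.017 to 0.402) and between those numbered 2 or 3 (0.176 to 0.317). Between these pairs the correlations were negative (-0.407 to -0.126), and the labels name no such split. Deviations from a group mean sum to 0 over the group, so positive correlations must be balanced by negative ones. The negative values are therefore not separate evidence of a split, which was read from these data. In Esrp1-KO, replicates 1 and 4 had the higher Cpeb1 and Pabpc1l and the lower Cpeb3, Papola and Parn. Within replicates 1 and 4 alone the log2 fold change of Cpeb1 was 1.09 (adjusted p = 0.0129), and within replicates 2 and 3 alone it was 1.01 (0.0180). For Cpeb4 the values were -1.30 (adjusted p = 0.0121) and -1.23 (0.00943), and for Pabpc1l they were 1.39 (0.0227) and 0.81 (0.0305). These 3 genes therefore passed in either pair of replicates. Both fits reuse libraries of the main fit, on a split read from these data, and are not separate support for the calls. Nudt21 had 0.35 (adjusted p = 0.330) and 0.77 (0.0422). Parn had -0.31 (adjusted p = 0.179) and 0.31 (0.278), so its overall value near 0 averages opposite signs, of which neither passed.

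The wider pathway was read from 6 lists, of which 72 genes were tested. Of these 11 rose and 13 fell, 33.3% together, against 36.9% of all genes tested. Among 12 tested cleavage and polyadenylation factors 3 rose and 1 fell, and the median log2 fold change was -0.20. Wdr33, which contacts the AAUAAA hexamer, rose 3.10-fold (85.9 ± 13.7 to 266 ± 18.8 FPKM, log2 fold change 1.63, adjusted p = 3.28e-05). Fip1l1, which links the complex to the poly(A) polymerase, rose 1.95-fold (18.2 ± 1.36 to 35.4 ± 3.18 FPKM, 0.92, adjusted p = 0.000322). Cstf2, which binds the downstream GU-rich element, rose 2.65-fold (1.93 ± 0.14 to 5.10 ± 1.34 FPKM, 1.04, adjusted p = 0.000936). Cpsf2 fell to 0.693 of WT (17.3 ± 1.29 to 12.0 ± 1.65 FPKM, -0.50, adjusted p = 0.0118). Papolg and Cpsf6 had -0.39 and -0.28 and did not pass.

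Of 9 tested noncanonical poly(A) polymerases and terminal uridylyltransferases 2 rose, 1 fell and 6 did not pass (median 0.07). Tent2, also called GLD2, the cytoplasmic polymerase first linked to CPEB in frog oocytes, rose 1.62-fold (26.1 ± 3.74 to 42.4 ± 7.69 FPKM, log2 fold change 0.67, adjusted p = 0.00968). Of its 50-base stretches 19.9% are shared with a single other gene. Tut7, which adds uridines to mRNAs with short tails, fell to 0.623 of WT (5.17 ± 0.43 to 3.22 ± 0.37 FPKM, -0.55, adjusted p = 0.00557). Tent4b rose (0.46, adjusted p = 0.0338), and lost its call without any of 5 libraries: WT replicates 1, 2 and 3 (0.0833, 0.0839 and 0.0713) and Esrp1-KO replicates 3 and 4 (0.0833 and 0.0925). Tut1, Tent5d and Tent4a had 0.45, 0.10 and -0.05 and did not pass. With the replicate number as a block, a fit in which 42.5% of all genes passed, Tut1 did too (adjusted p = 0.0382).

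Of 8 tested poly(A)-binding proteins and partners 1 rose and 7 did not pass (median 0.14). That gene, Larp4b (0.35, adjusted p = 0.0422), lost its call without any WT replicate or without Esrp1-KO replicates 2, 3 or 4 (adjusted p = 0.0668 to 0.115), and kept it without Esrp1-KO replicate 1 (0.0193). Paip1, a partner of poly(A)-binding protein and the most abundant of the list, had 616 ± 8.44 FPKM in WT and 498 ± 121 in Esrp1-KO (-0.34, adjusted p = 0.153). Pabpn1l, a form of the nuclear poly(A)-binding protein found in oocytes and early embryos, had 56.0 ± 33.5 and 35.1 ± 4.58 FPKM (-0.51, adjusted p = 0.221), with 106 FPKM in WT replicate 3. Paip2, Paip2b and Zc3h14 had log2 fold changes of 0.50, 0.33 and 0.28 and did not pass.

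Of 9 tested genes listed as deadenylases or their subunits besides Parn 1 rose, 3 fell and 5 did not pass (median -0.26). Those that passed were 44.4%, against 36.9% of all genes tested, and those that fell 33.3%, against 23.1%. The list includes Pan3, a partner subunit, so its counts are not those of deadenylases alone. Pan3, the partner subunit of the PAN2 nuclease, fell to 0.601 of WT (7.18 ± 0.67 to 4.32 ± 0.83 FPKM, log2 fold change -0.63, adjusted p = 0.00647). Cnot6, a nuclease of the CCR4-NOT complex, fell to 0.607 of WT (5.62 ± 0.32 to 3.41 ± 0.76 FPKM, -0.60, adjusted p = 0.00927). Pan2 rose (0.37, adjusted p = 0.0349) where its partner fell, and Angel2 fell (-0.64, adjusted p = 0.0243). The call of Angel2 was lost without WT replicate 1 or 4 (adjusted p = 0.0578 and 0.0694) or Esrp1-KO replicate 2 or 3 (0.0564 and 0.0604). The call of Pan2 was lost without WT replicates 1, 2 or 4 (0.0741, 0.0841 and 0.0608) or Esrp1-KO replicates 1, 3 or 4 (0.0642, 0.0648 and 0.0629). Cnot7, another CCR4-NOT nuclease, had 128 ± 9.98 and 106 ± 7.39 FPKM (-0.26, adjusted p = 0.0916), and Angel1 had -0.41 (0.226). With the replicate number as a block, Angel1 passed (adjusted p = 0.0478).

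Of 15 tested partners and regulators of CPEB 2 rose, 2 fell and 11 did not pass (median 0.03). Msi2, an RNA-binding protein of the Musashi family that can act with CPEB1 on shared targets, had 2.67 to 3.53 FPKM in WT and 0.0168 to 0.0816 in Esrp1-KO. It fell to 0.0130 of WT by mean FPKM (3.10 ± 0.38 to 0.0403 ± 0.029, log2 fold change -1.97 on the log2(FPKM + 1) scale, adjusted p = 1.00e-05). Msi2 reached the minimum level only through its level in WT, and had 5 to 24 reads a library in Esrp1-KO. The counts of this list include Msi2 and only describe its genes. Zar1, which binds stored maternal mRNAs, rose 2.26-fold (119 ± 22.2 to 269 ± 47.3 FPKM, 1.18, adjusted p = 0.000696), though other genes hold 28.4% of its 50-base stretches. Ddx6, a helicase of repressed mRNPs, fell (-0.52, adjusted p = 0.0275), and Pum2, which binds Pumilio elements, rose (0.50, adjusted p = 0.0352). Ddx6 lost its call without WT replicates 1, 3 or 4 (0.0550, 0.0735 and 0.0767) or Esrp1-KO replicates 1 or 2 (0.0540 and 0.0591), and with TMM scaling (0.0546), median-ratio scaling (0.0588) or quantile normalization (0.0723). Pum2 lost its call without any WT replicate (0.0691, 0.0539, 0.0763 and 0.0845) or Esrp1-KO replicates 3 or 4 (0.0569 and 0.0535). Aurka, a kinase reported to act on CPEB1, had 105 ± 19.7 and 156 ± 48.2 FPKM (0.53, adjusted p = 0.0915), and passed with the replicate number as a block (0.0255). Eif4e1b had -0.30 and did not pass.

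**Figure D3:**
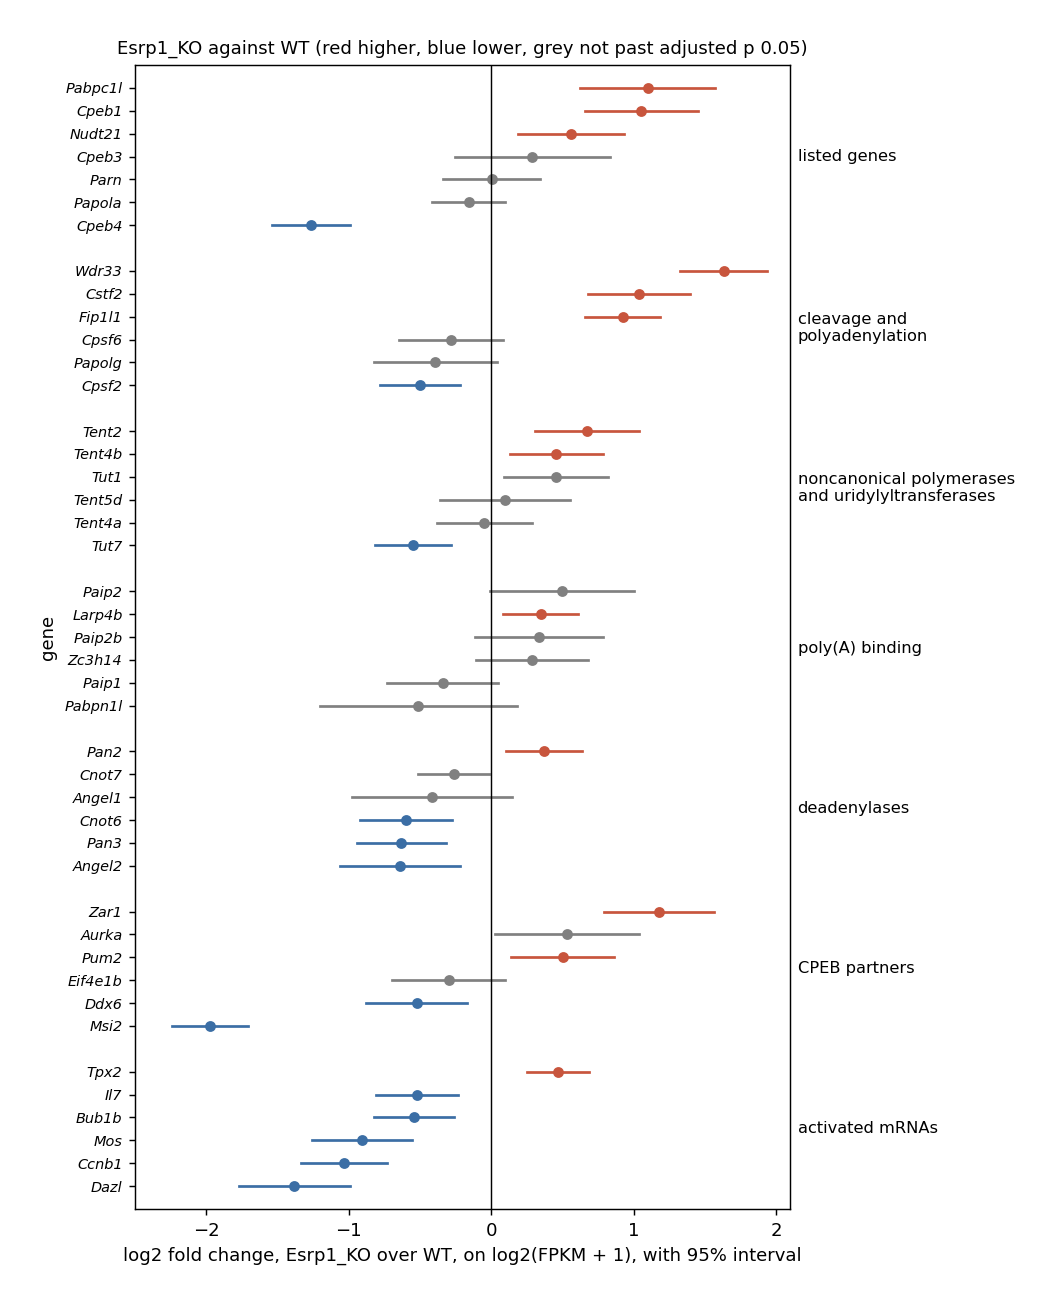
Log2 fold change of Esrp1-KO over WT on the log2(FPKM + 1) scale, with 95% intervals, for the tested genes of the 10 and the named genes of the pathway lists. Cpeb1 and Pabpc1l lie to the right of 0 and Cpeb4 to the left, and the intervals of Cpeb3, Papola and Parn cross 0.

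The last list held 19 mRNAs described as activated through cytoplasmic polyadenylation in oocytes. All 19 were tested: 2 rose, 6 fell and 11 did not pass (median -0.16). Those that passed were 42.1%, against 36.9% of all genes tested, and those that fell 31.6%, against 23.1%. The list was not tested as a set. Dazl, an RNA-binding translation factor of germ cells, fell from 859 ± 76.7 to 336 ± 83.2 FPKM, 0.391 of WT (log2 fold change -1.38, adjusted p = 0.000300). Ccnb1, the cyclin of the M-phase kinase, fell from 828 ± 46.2 to 408 ± 67.5 FPKM (-1.03, adjusted p = 0.000384), and other genes hold 23.4% of its 50-base stretches. Mos, the kinase that maintains the metaphase arrest, fell from 204 ± 34.9 to 108 ± 15.7 FPKM (-0.91, adjusted p = 0.00175). Bub1b, of the spindle checkpoint, and the cytokine gene Il7 fell less, with -0.54 (adjusted p = 0.00786) and -0.52 (0.0102). Tpx2, a spindle assembly factor, rose from 107 ± 3.23 to 149 ± 6.61 FPKM (0.47, adjusted p = 0.00491). The remaining calls, named after their values were seen, were Dcp2, a decapping enzyme (-0.64, adjusted p = 0.0165), and Sycp3, a protein of the meiotic chromosome axis (1.39, adjusted p = 0.0483, with overlapping groups). The median of all genes tested was -0.06.

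Annotated 3′ ends were then read for the motifs that CPEB proteins and the hexamer readers use. An end counted where a complete coding transcript of GENCODE M21 had AATAAA or ATTAAA starting in its last 50 bases, and a CPE was TTTTAT or TTTTAAT anywhere in its last 100 bases, on the transcript's strand. The second CPE form can overlap AATAAA. Of the 10 genes 9 had such an end (not Cpsf1), and 2 of these, Cpeb3 and Nudt21, held a CPE in at least 1 end. Both were among the 7 of these that were tested. Of 6107 tested protein-coding genes with such an end, 28.0% held a CPE. The sites below show the hexamers of Cpeb4 and Pabpc1l, which changed, the CPEs of Nudt21 and Cpeb3, the only ones found among the 10 genes, and those of 2 activated mRNAs that fell, Bub1b and Ccnb1. The Ccnb1 stretch holds the CPE without its hexamer. They are DNA letters of 30 bases, 5′ to 3′ on the transcript's strand, with hexamers and CPEs in capitals. They lie on GRCm38 at chr11:31935604-31935633 (plus) for Cpeb4, chr2:164050505-164050534 (plus) for Pabpc1l, chr8:94015510-94015539 (minus) for Nudt21, chr19:37023950-37023979 (minus) for Cpeb3, chr2:118641556-118641585 (plus) for Bub1b and chr13:100778775-100778804 (minus) for Ccnb1.
Cpeb4: agatgttgaatgAATAAAacttttaactca
Pabpc1l: tttgctttatatATTAAAaaatgctgcaaa
Nudt21: agTTTTATttcactgttatttcAATAAAaa
Cpeb3: gctgcatgcAATAAATTTTATatccaatgt
Bub1b: cactgtgtaTTTTATAATAAAatagttttt
Ccnb1: ctcatttgctgTTTTAATttatacatctga
Cpeb4 ended with the canonical hexamer and Pabpc1l with the ATTAAA variant, and neither window held a CPE by these letters. In Cpeb3 and Bub1b the CPE abutted the hexamer, and in Nudt21 it lay upstream. In Ccnb1 only the shorter of its 2 ends held a CPE. A match is a description of letters, and a window without one says nothing about binding.

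The 1710 tested protein-coding genes with a CPE in at least 1 annotated end were then set beside the 4397 without. A gene with more annotated ends has more chances to hold one. The number of ends and the level of the genes were not compared between the sets. With a CPE 171 were higher in Esrp1-KO and 478 (28.0%) lower, with a median log2 fold change of -0.12. Without a CPE 690 (15.7%) were higher and 856 (19.5%) lower, with a median of -0.01. The windows with a CPE were also richer in A and T, 69.8% on average against 64.5%, and the part of base composition in the difference was not tested. Genes are not replicates, so no p is given. Among the 19 activated mRNAs 9 held a CPE (47.4%). Of those 9, 1 rose and 2 fell, and of the 10 without, 1 rose and 4 fell.

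**Figure D4:**
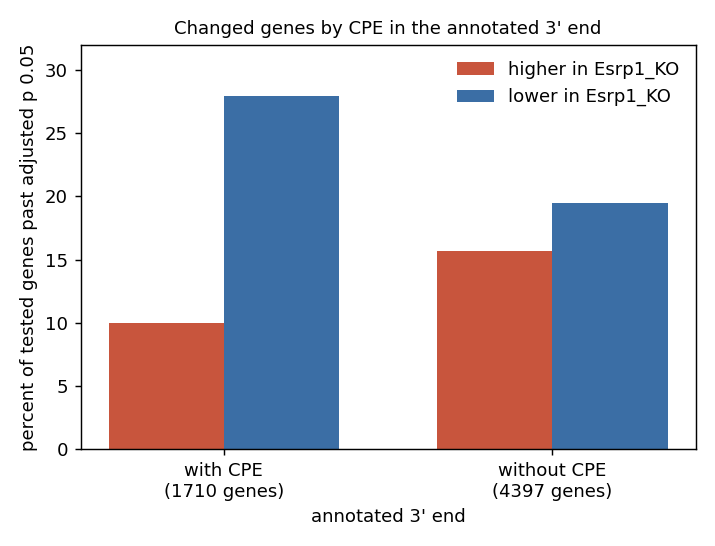
Percent of tested protein-coding genes that passed the threshold, higher or lower in Esrp1-KO (bars from 0), for the 1710 genes with a CPE in an annotated 3′ end and the 4397 without. The lower bar is 28.0% with a CPE and 19.5% without, and the higher bar is 10% and 15.7%.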

How the data were processed

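FPKM per gene were deposited by the authors, per the file headers, made from reads on GRCm38, per the submitters' processing notes. Not given in the sources used here are the aligner, the counting tool and the release of the annotation. Ensembl identifiers were matched to GENCODE M21 symbols, for 24812 of 24860 genes. FPKM times exon length gave whole reads within 0.02 of a read for 90.0 to 90.6% of the values above 0, which gave the depths and the reads per gene. Parn, Pabpc1 and Cpsf1 needed other lengths than those of M21, found by search. PCR copies carried no marks, so reads are not counts of molecules. The design text speaks of biological replicates, but not of animals per tube, so the spread behind the p-values is that between tubes.

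Tests used limma 3.58.1 in R 4.3.3 with a mean-variance trend and no covariate, on log2(FPKM + 1), over genes whose mean reached 1 FPKM. They were also run on simulated data with independent libraries and the same spread in both groups. That simulation did not cover correlation between libraries or a wider spread in Esrp1-KO, as seen for Pabpc1l. Named genes were Esrp1, Esrp2, the 10 genes and, of each of 6 pathway lists, up to 6 tested members with the smallest p. Esrp2 was below the minimum (0 to 0.734 FPKM). Members and lists were chosen with earlier results of these data known. Deviations of same-numbered WT and Esrp1-KO libraries from their group means correlated at 0.226 to 0.317 across genes, all above 0.1. The block by replicate number treats them as pairs, a reading from the data and not from the labels. WT replicate 4 correlated more with Esrp1-KO replicate 1 (0.402) than with replicate 4 (0.261). WT replicate 3 correlated more with Esrp1-KO replicate 2 (0.252) than with replicate 3 (0.226). Pairing by number was therefore not established, and calls gained with the block depend on it. The 19 alternatives covered the pseudocount, the filter, 4 scalings, the block, limma-voom on recovered reads, replicates 1 and 4 alone, replicates 2 and 3 alone, and leaving out each library. Strand was not marked, so overlapping genes on opposite strands cannot be told apart.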

Additional observations from a re-analysis of the deposited data

Results flagged for a closer look

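In each group of 4 libraries the highest or lowest was compared with the other 3, for 114 groups of values (each named gene and each ratio, in each genotype). In 12 a single library stood apart from the rest by more than Dixon's 95% limit. Chance flags about 1 in 20 groups, and values of one library are not independent of each other. Esrp1-KO replicate 1 was the library that stood apart 5 times: the ratio of Cpeb1 to Cpeb4 was 37.0 (others 17.7 to 20.9), Zar1 had 340 FPKM (244 to 247), Cpsf2 14.5 (11.0 to 11.4), Pan2 15 (13.2 to 13.5) and Cnot7 95.3 (109 to 111). WT replicate 3 stood apart 3 times: Cpeb3 had 5.18 FPKM (others 3.23 to 3.49), Pabpc1l 6.02 (6.46 to 6.52) and Pabpn1l 106 (34.7 to 46.5). WT replicate 1 had 0.386 FPKM of Cpsf1 (0.204 to 0.220) and 0.734 of Esrp2 (0 to 0.00818). WT replicate 2 had 16.2 FPKM of Fip1l1 (18.7 to 19.1), and WT replicate 4 had 8.18 of Pan3 (6.80 to 6.89).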

How the results depend on the processing

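Cpeb1, Cpeb4 and Pabpc1l kept their direction and their calls in all 19 alternatives, with log2 fold changes of 0.92 to 1.15, -1.39 to -1.17 and 0.81 to 1.39. Cpeb3 (18 alternatives) and Papola (19) passed in none. Nudt21 was higher in Esrp1-KO in all 18 that gave a value and lost its call with no filter (0.56), with replicates 1 and 4 alone (0.35) and without 5 of the 8 libraries (0.47 to 0.71 over all 8), while limma-voom on recovered reads gave 1.04. Parn, near 0, changed sign with a common total of nuclear genes (-0.057), limma-voom (-0.000125), replicates 1 and 4 alone (-0.31) and without WT replicate 3 or Esrp1-KO replicates 2 or 3 (-0.075 to 0.096 over all 8), and passed in none. Tent4a, likewise near 0, changed sign with TMM scaling (0.030), median-ratio scaling (0.046), quantile normalization (0.048) and without Esrp1-KO replicate 3 (-0.17 to 0.033 over all 8), as did Tent5d with replicates 1 and 4 alone (-0.083) and without WT replicate 3 (-0.010 to 0.25 over all 8). With the replicate block 3406 genes passed (42.5%), no call of the 10 genes changed, and among the other named genes Tut1, Angel1 and Aurka gained one. Tent4b, Larp4b and Pan2 lost their calls with a common total of nuclear genes (adjusted p = 0.0706, 0.0933 and 0.0835), Tut1 gained one with TMM, median-ratio and quantile scaling, and Cnot7 with the last of these and a common total of nuclear genes. With no filter Tent4b (0.0677), Larp4b (0.0530), Angel2 (0.0728), Ddx6 (0.0659) and Pum2 (0.0804) also lost theirs. Within replicates 2 and 3 the calls of Tent2, Cnot6, Bub1b and Tpx2 were lost, within replicates 1 and 4 that of Angel2, and within either pair those of Cpsf2, Tut7, Tent4b, Larp4b, Pan3, Pan2, Ddx6, Pum2 and Il7. The count over all genes, 2961 as reported, was 1664 of 4290 with a mean of at least 5 FPKM and 1489 with replicates 2 and 3 alone. The pathway lists held 24 calls as reported, 13 with replicates 1 and 4 and 10 with replicates 2 and 3, in fits with fewer samples. The percent of genes that were lower, with a CPE and without, was 28.0 against 19.5 as reported, 16.3 against 8.54 with no filter, 24.0 against 16.9 with TMM scaling, 23.4 against 16.2 with median-ratio scaling, 23.6 against 16.2 with quantile normalization, 31.0 against 22.1 with a common total of nuclear genes, 30.8 against 21.4 with the replicate block, 20.8 against 13.5 in replicates 1 and 4, 14.2 against 8.57 in replicates 2 and 3 and 22.9 to 27.7 against 15.7 to 19.1 without a library. It was higher with a CPE in all 19 alternatives. They reuse these libraries and the same CPE matches, so they are not separate support. None takes account of base composition, number of ends or level of the genes. The cause of these shifts was not tested. Cpeb2, Pabpc1 and Cpsf1 had at most 141 reads a library, and whether depth limited their tests was not tested.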
